A study of Mus musculus with 6 samples.

Results

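The 6 genes described here, Ccl5, Cxcl9, Cxcl10, Cxcl11, Cxcl16 and Xcl1, belong to the chemokine family and are grouped as T cell attracting chemokines, although Cxcl11 is a pseudogene in this mouse strain and Xcl1 is best known for acting on dendritic cells. They were picked by gene symbol out of 19505 named genes on the array, with earlier results of these data known. Each was represented by 1 probe set. Microglia, which are the tissue macrophages of the central nervous system, were taken from the brain at the peak of EAE (experimental autoimmune encephalomyelitis), in which an immune response to myelin gives mice a disease like multiple sclerosis. All mice were female C57BL/6 and received 100 µg of recombinant MOG (myelin oligodendrocyte glycoprotein) in IFA under the skin, with 300 ng of pertussis toxin into a vein on the same day and again 48 h later. Microglia of 3 control samples were compared with those of 3 samples from mice labelled as a B cell conditional knock-out (CKO), a genotype that the series title ties to B cells expressing GM-CSF. The deleted gene, the Cre driver, the genotype of the controls, the age of the mice and the isolation of the microglia are not stated in the labels. Nothing in the labels states that replicates came from separate animals, so each p-value reflects the spread among these arrays alone and that spread may be technical.

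Chemokines are small secreted proteins that guide leukocytes through G protein-coupled receptors. Cxcl9, Cxcl10 and Cxcl11 share the receptor Cxcr3, found on effector T cells and NK cells, and are classic targets of interferon-gamma. Cxcl16 is made as a transmembrane protein that is shed by the proteases Adam10 and Adam17, and it binds Cxcr6. Ccl5 binds Ccr1, Ccr3 and a further receptor, and is made by activated T and NK cells as well as by myeloid cells. Xcl1 comes mainly from NK cells and CD8 T cells and acts on dendritic cells that carry Xcr1. In EAE, microglia and astrocytes are known sources of Cxcl10, and infiltrating T cells are the main source of interferon-gamma in the brain.

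In the mouse annotation (RefSeq, assembly GRCm38.p6), Cxcl9, Cxcl10 and Cxcl11 lie in 1 cluster on chromosome 5, Ccl5 and Cxcl16 on chromosome 11 and Xcl1 on chromosome 1. Cxcl11 is annotated there as a transcribed pseudogene, because the C57BL/6 strain carries a frameshift in it, so a Cxcl11 value here is an RNA level with no functional chemokine behind it. Of the 6 genes, 3 had an entry in the RefSeq promoter table. The 250 bases before their start are shown because Cxcl9 and Cxcl10 had similar profiles over the arrays while Xcl1 did not share them. All 3 lie on the minus strand, at chr5:92328080-92328329 for Cxcl9, chr5:92348890-92349139 for Cxcl10 and chr1:164935523-164935772 for Xcl1. Capitals mark matches on either strand to an interferon-stimulated response element core (GAAA, any 2 bases, GAAA), an interferon-gamma activated site core (TTCNNNGAA) or the NF-kB consensus.
Cxcl9: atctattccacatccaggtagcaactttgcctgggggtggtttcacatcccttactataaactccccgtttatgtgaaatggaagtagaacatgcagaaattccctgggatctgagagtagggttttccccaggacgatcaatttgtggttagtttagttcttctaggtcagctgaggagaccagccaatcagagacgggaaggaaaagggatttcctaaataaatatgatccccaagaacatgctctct
Cxcl10: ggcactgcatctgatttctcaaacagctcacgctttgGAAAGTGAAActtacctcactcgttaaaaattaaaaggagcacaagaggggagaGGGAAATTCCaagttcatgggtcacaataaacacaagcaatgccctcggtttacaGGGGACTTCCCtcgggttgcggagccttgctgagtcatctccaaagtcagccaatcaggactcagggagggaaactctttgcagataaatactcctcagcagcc
Xcl1: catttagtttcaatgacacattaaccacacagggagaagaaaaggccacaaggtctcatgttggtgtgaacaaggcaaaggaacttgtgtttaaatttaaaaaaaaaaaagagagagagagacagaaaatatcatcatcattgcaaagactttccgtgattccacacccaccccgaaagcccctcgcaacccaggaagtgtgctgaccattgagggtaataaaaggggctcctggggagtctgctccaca

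The Cxcl10 window held 1 match to the interferon-stimulated response element core, GAAAGTGAAA, from 213 to 204 bases before the start. It also held the NF-kB match GGGAAATTCC, from 159 to 150 bases before the start. A second stretch matched the NF-kB consensus in overlapping frames, as GGGGACTTCC and as GGGACTTCCC, the latter on both strands. The windows of Cxcl9 and Xcl1 held none of the 3 motifs, which says only that these letters are not in those 250 bases. Among 32851 promoter windows of this length, 2.98% held the response element core, 7.02% the interferon-gamma activated site core and 7.25% the NF-kB consensus.

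Each array gave 22206 log2 values, with medians from 7.13 to 7.34. The number of arrays limits the precision of every value below. CKO replicates 2 and 3 had interquartile ranges of 3.08 and 3.11, narrower than the 3.66 to 4.0 of the other arrays. CKO replicate 1 and control replicate 2 carried the most astrocyte RNA, with Slc1a2, an astrocyte glutamate transporter, at 16.92 and 15.02 against 10.79 to 12.90 elsewhere. The isolates carried microglial markers at high values on all arrays: P2ry12 ranged from 18.76 to 19.72 and Tmem119 from 12.29 to 14.77.

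**Figure D1:**
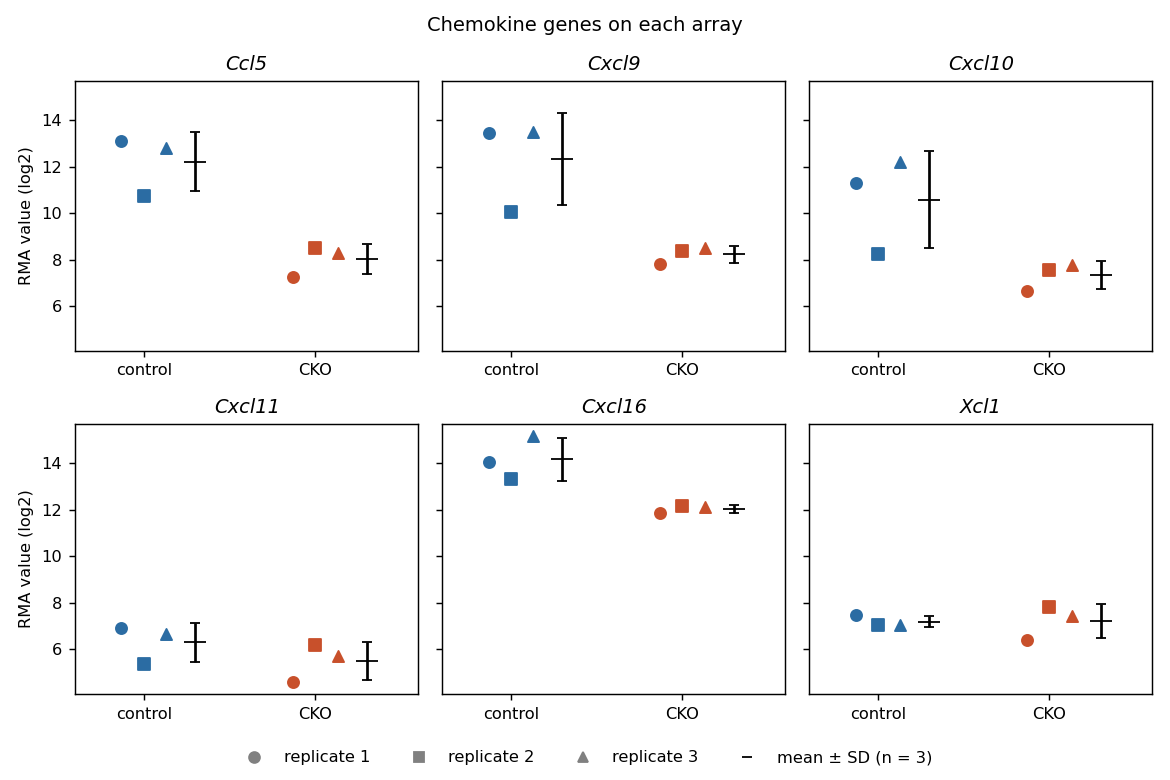
Log2 RMA values of the 6 chemokine genes on each array (y axis), with control arrays in blue, CKO arrays in orange, replicates by marker shape and the mean ± SD of each group in black (n = 3). Ccl5, Cxcl9, Cxcl10 and Cxcl16 have all CKO arrays below all controls, Cxcl11 and Xcl1 overlap, and control replicate 2 is the lowest control for each gene.

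Of the 6 chemokine genes, 5 had lower values in CKO than in control isolates, and for 4 of them (Ccl5, Cxcl9, Cxcl10 and Cxcl16) the groups did not overlap. Over all probe sets, 8.48% had every CKO array below every control and 5.94% had every CKO array above. None of the 6 genes passed limma's two-sided test at 0.05, with p-values adjusted for all 22206 probe sets by the Benjamini-Hochberg method, where 0.00901% of probe sets were called. At an adjusted p under 0.1 only Ccl5 passed, and 0.198% of probe sets were called lower. At an unadjusted p under 0.05 the same 4 genes were lower and 0 were higher, against 6.35% of all probe sets lower and 3.55% higher. The genes were chosen with earlier results of these data known, so these counts are a description and not a test. The 4 genes also correlated with each other at Pearson r of 0.94 to 0.98 over the 6 arrays, so they are not independent. The median log2 fold change (CKO minus control) of the 6 genes was -2.69, and that of all probe sets was 0.06. That median was -3.49 without control replicate 2 and -2.04 without control replicate 3. In a bulk isolate, fewer cells of a type and less RNA per cell cannot be told apart.

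Ccl5, the CC chemokine also known as RANTES, had control values of 13.10, 10.75 and 12.78 (replicates 1, 2 and 3, the order used throughout) and CKO values of 7.27, 8.50 and 8.30. Control replicate 2 was the lowest control, yet it stood 2.25 log2 units above the highest CKO array. The group means were 12.21 ± 1.27 (SD, n = 3) and 8.02 ± 0.66, a log2 fold change of -4.19 (SE 0.62, limma adjusted p = 0.0891). On the linear scale the control mean was 18.2-fold the CKO mean (95% interval 6.80 to 48.8). Only 6 probe sets of the array had a lower log2 fold change, and 26 had a smaller p.

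Cxcl9, an interferon-gamma-induced ligand of Cxcr3, had the widest separation among the CXC chemokines. It was at 13.46, 10.03 and 13.48 in controls and at 7.82, 8.38 and 8.48 in CKO. The 3 CKO arrays lay within 0.66 of each other, while the controls spanned 3.45 because replicate 2 was far below the other two. The log2 fold change was -4.10 (SE 0.84, limma adjusted p = 0.140), or 17.1-fold on the linear scale (95% interval 4.52 to 64.7).

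Cxcl10, which also binds Cxcr3 and responds to both types of interferon, was at 11.29, 8.22 and 12.19 in controls and at 6.64, 7.57 and 7.76 in CKO. The groups were separated by 0.46, less than the 3.97 between the lowest and highest control. The log2 fold change was -3.24 (SE 0.90, limma adjusted p = 0.258), or 9.47-fold (95% interval 2.29 to 39.2). Cxcl9 and Cxcl10 put the 6 arrays in the same order, from CKO replicate 1 at the bottom to control replicate 3 at the top. Art3, whose annotated span overlaps Cxcl10 and Cxcl11, was at 6.60 ± 0.53 and 6.20 ± 0.17.

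The Cxcl11 RNA was dim, with a mean over the arrays at the 26.4 percentile of probe sets. It was at 6.92, 5.35 and 6.65 in controls and at 4.61, 6.18 and 5.71 in CKO, so control replicate 2 lay inside the CKO range. The log2 fold change was -0.81 (SE 0.52, 95% interval -2.0 to 0.39, limma adjusted p = 0.617). A difference of this size was within the spread between replicates.

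Cxcl16, the membrane-anchored ligand of Cxcr6, lay at the 95.8 percentile of probe sets. It was at 14.06, 13.32 and 15.15 in controls and at 11.85, 12.17 and 12.13 in CKO. The CKO arrays were tight, with a range of 0.32, and the groups did not overlap. The log2 fold change was -2.13 (SE 0.45, limma adjusted p = 0.150), or 4.37-fold (95% interval 2.15 to 8.86). Zmynd15, which overlaps Cxcl16 in the annotation, was at 7.66 ± 0.63 in controls and 6.19 ± 0.25 in CKO (limma adjusted p = 0.211), and whether its transcripts reach the Cxcl16 probes was not tested.

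Xcl1, the sole XC chemokine of the mouse and a product of NK and CD8 T cells, lay at the 49.6 percentile of probe sets. Its signal over background was not assessed, so an unchanged value may hold little Xcl1 RNA. Xcl1 was at 7.46, 7.04 and 7.05 in controls. It was at 6.39, 7.81 and 7.43 in CKO, a range that enclosed all controls. The log2 fold change was 0.03 (SE 0.39, 95% interval -0.87 to 0.93, limma adjusted p = 0.986), an interval that does not reach the changes of Ccl5, Cxcl9, Cxcl10 or Cxcl16. The sign of this small value was negative under quantile normalization, cyclic loess and median centring.

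The sizes of the changes were compared between genes within arrays, as the difference of 2 chemokines on each array. The 15 pairs reuse the same genes and so are not independent, and how often pairs of other genes separate was not computed. Cxcl9 minus Cxcl10 was 2.17, 1.81 and 1.29 in controls and 1.18, 0.81 and 0.72 in CKO, so the Cxcl9 difference between the groups was the larger on these arrays. Ccl5 minus Cxcl9, in contrast, was -0.36, 0.72 and -0.70 in controls and -0.55, 0.12 and -0.18 in CKO, which overlapped. Ccl5 minus Xcl1 was 5.64, 3.71 and 5.73 in controls and 0.88, 0.69 and 0.87 in CKO. With 3 arrays in each group the smallest p of an exact permutation test (two-sided) is 0.1, and the smallest adjusted p over the 15 pairs was 0.15, so none of these differences could pass.

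**Figure D2:**
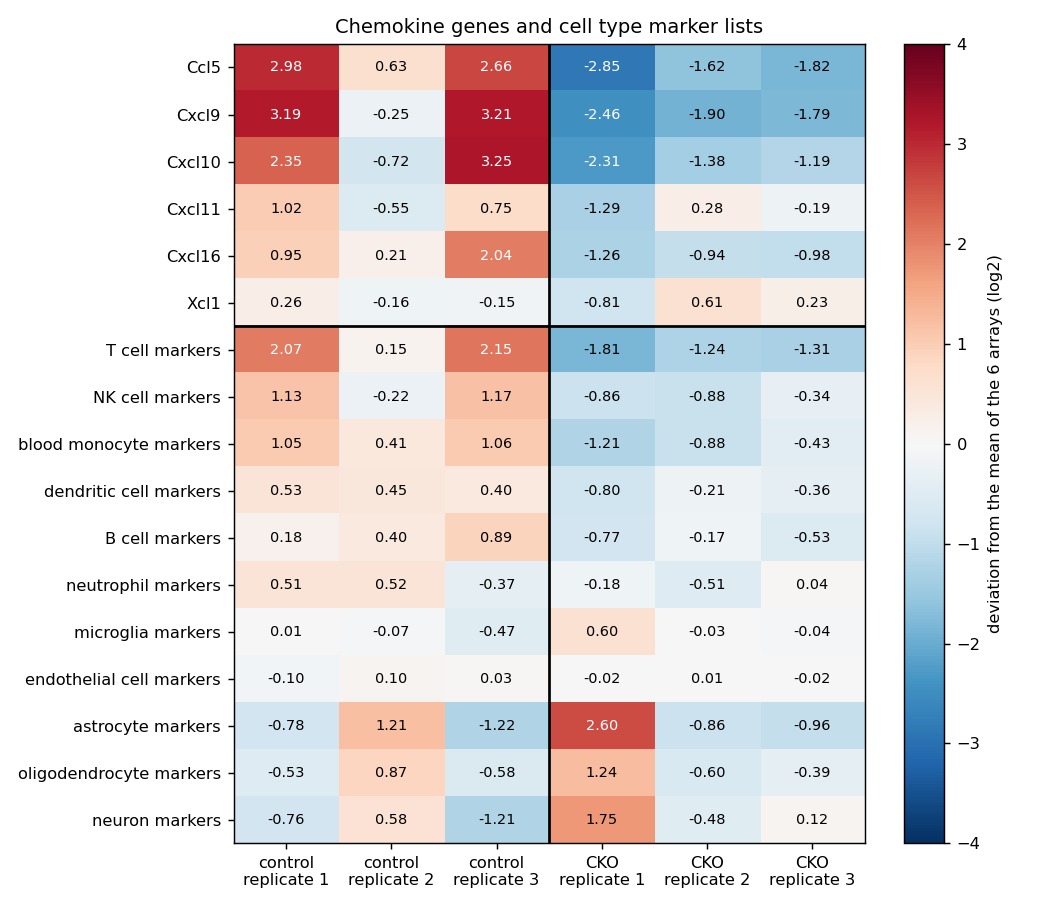
Deviation of each array (columns) from the mean of the 6 arrays, in log2 units, for the 6 chemokine genes and for the mean of each cell type marker list (rows); red is above and blue below the mean. T cell markers are at 2.07, 0.15 and 2.15 in controls and at -1.81, -1.24 and -1.31 in CKO, and astrocyte markers are highest on CKO replicate 1 and control replicate 2.

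Control replicate 2 was the lowest control for 6 of the 6 genes, and CKO replicate 1 was the lowest CKO array for 6 of 6. Over all probe sets, control replicate 2 was the lowest control in 37.3%, CKO replicate 1 the lowest CKO array in 44.5%, and both held in 18%. These are the same arrays that carried the most astrocyte RNA, whose part in the chemokine values was not tested. Averaged over the 6 genes, the deviation from the 6-array mean was 1.79, -0.14 and 1.96 in controls and -1.83, -0.82 and -0.96 in CKO.

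Leaving out these arrays moved the calls. Without control replicate 2, limma called 3 of the 6 genes lower, Ccl5 (adjusted p = 0.0146), Cxcl9 (0.00921) and Cxcl10 (0.0206), where 0.563% of all probe sets were called lower. Without CKO replicate 1 it called Ccl5 (0.0145), Cxcl9 (0.0346) and Cxcl16 (0.0354), where 4.94% were called lower, but that CKO group holds only the arrays with a narrow range, so genotype and value range cannot be told apart there. Without both arrays it called Ccl5, Cxcl9, Cxcl10 and Cxcl16 (adjusted p = 0.00066, 0.000427, 0.00146 and 0.0078), with 6.28% of probe sets called lower. Weighting arrays by their fit called the same 4 genes, with 4.76% of probe sets called lower. The lowest weight, 0.26, went to CKO replicate 1, so the weighted CKO mean leans on the arrays with a narrow range. Leaving out any other single array called 0 of the 6 genes with limma, and 4 remained at an unadjusted p under 0.05.

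**Figure D3:**
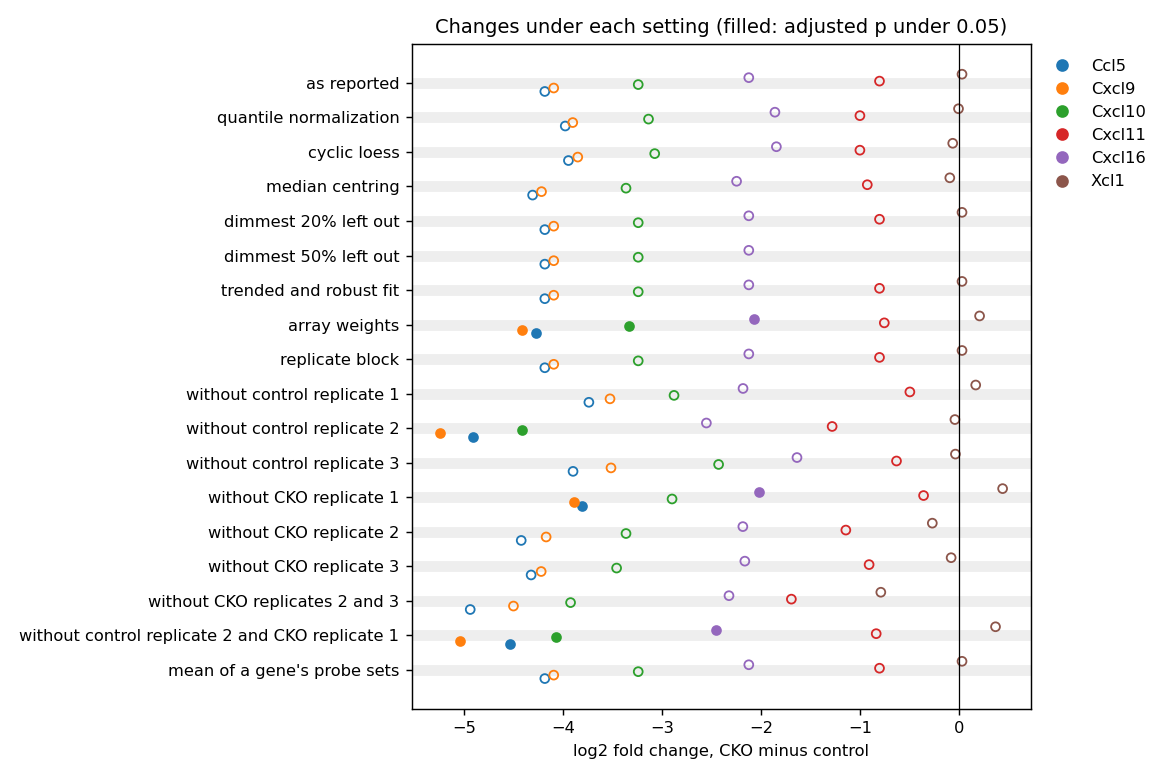
Log2 fold change (x axis, CKO minus control) of each chemokine gene (colour) under every setting tried (rows); filled points had a limma adjusted p under 0.05. Ccl5, Cxcl9, Cxcl10, Cxcl16 and Cxcl11 stay below 0 wherever they were fitted, and Xcl1 lies on both sides of 0.

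The setting without CKO replicates 2 and 3 holds 1 CKO array, the lowest of its group for all 6 genes, and takes its spread from the controls, so that array is assumed to vary as they do. It gave the lowest values of Ccl5, Cxcl11 and Xcl1 among the settings, over which the change of Ccl5 ran from -4.94 to -3.74, that of Cxcl9 from -5.24 to -3.52, that of Cxcl10 from -4.42 to -2.43 and that of Cxcl16 from -2.56 to -1.64. Cxcl11 ran from -1.70 to -0.36 and Xcl1 from -0.79 to 0.44. The ranges of Ccl5 and Cxcl9 overlap widely, while those of Cxcl11 and Xcl1 lie apart from those of Ccl5, Cxcl9 and Cxcl10.

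**Figure D4:**
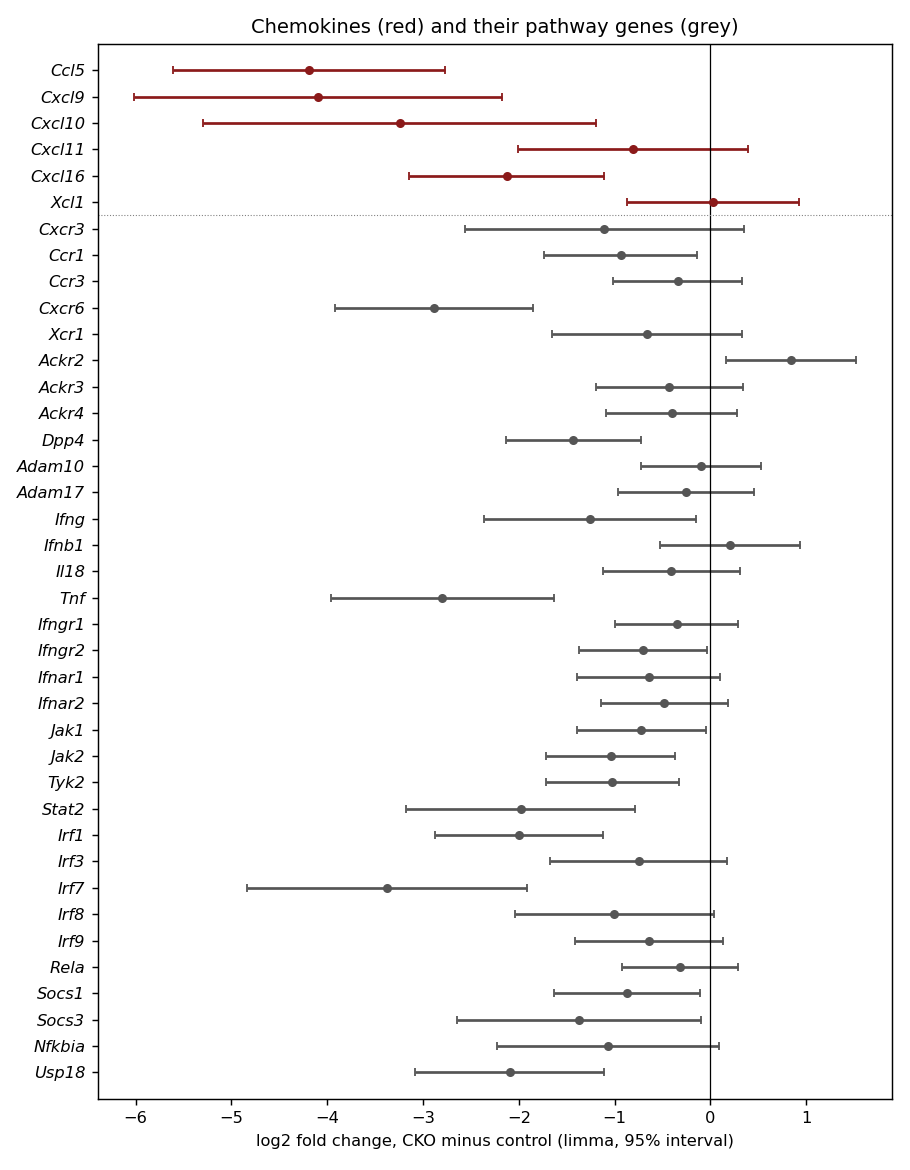
Log2 fold change (x axis, CKO minus control) with its 95% interval from limma for the 6 chemokine genes (red) and 33 genes of their receptors, proteases, inducers and signalling (grey). Cxcr6 at -2.89 and Irf7 at -3.38 lie with the chemokines on the left, and Ackr2 at 0.84 lies on the right.

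The receptors of these chemokines also had lower means in CKO, in 5 of 5 analysed. Cxcr6, the Cxcl16 receptor of tissue T cells, was at 9.36, 7.58 and 8.58 in controls and at 5.36, 6.02 and 5.48 in CKO (log2 fold change -2.89, SE 0.45, limma adjusted p = 0.0983). All 3 CKO arrays were below all controls by over 1 log2 unit. Cxcr3, the receptor of Cxcl9 and Cxcl10, was at 11.02, 8.77 and 9.56 in controls and at 7.67, 9.54 and 8.82 in CKO. Those groups overlapped, and its change of -1.11 (SE 0.64, adjusted p = 0.581) was within the spread between arrays. Ccr1, a receptor of Ccl5 on myeloid cells, was lower by 0.94 without overlap (log2 fold change -0.94, adjusted p = 0.435). Ccr3, another Ccl5 receptor, differed by -0.34 and Xcr1, the Xcl1 receptor of cross-presenting dendritic cells, by -0.66, both with overlap.

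Among decoy receptors, which bind chemokines without attracting cells, Ackr2 was at 5.78, 5.39 and 5.60 in controls and at 6.09, 6.84 and 6.37 in CKO (log2 fold change 0.84, SE 0.30, limma adjusted p = 0.399). Ackr3, which binds Cxcl11, differed by -0.43. The proteases that shed Cxcl16 had similar means in both groups, with Adam10 at 14.19 ± 0.17 and 14.09 ± 0.26, and Adam17 at 13.71 ± 0.45 and 13.45 ± 0.15. Their differences of -0.10 (95% interval -0.72 to 0.52) and -0.26 (95% interval -0.96 to 0.45) have intervals that exclude the -2.13 of Cxcl16. Dpp4, a peptidase that trims the N terminus of Cxcl9, Cxcl10 and Cxcl11, was at 8.38 ± 0.29 and 6.95 ± 0.37 (log2 fold change -1.43, limma adjusted p = 0.159).

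Of the inducers, Ifng, which encodes interferon-gamma, was at 9.15, 7.43 and 7.76 in controls and at 6.68, 7.43 and 6.46 in CKO. The groups touched at 7.43, and the change was -1.26 (SE 0.48, limma adjusted p = 0.450). Ifngr1 and Ifngr2, the chains of its receptor, differed by -0.35 and -0.70. Irf1, a transcription factor downstream of that receptor, was at 12.31, 11.32 and 12.77 in controls and at 10.06, 10.25 and 10.10 in CKO (log2 fold change -2.0, SE 0.39, adjusted p = 0.121). Irf7, which amplifies type I interferon, differed by -3.38 (adjusted p = 0.121), Usp18, which restrains interferon receptors, by -2.10 (adjusted p = 0.140), and Stat2, a signal carrier of type I interferon receptors, by -1.98 (adjusted p = 0.239). Tnf, a cytokine that drives NF-kB, differed by -2.80 (adjusted p = 0.115), whereas Ifnb1, which encodes interferon-beta, was near the lowest values of the arrays at 4.44 ± 0.37 and 4.64 ± 0.36.

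Of the 33 genes analysed from the list of 37 receptors, proteases, inducers and signalling genes, 31 were lower in CKO and 2 higher, while 44.5% of all probe sets were lower. At an unadjusted p under 0.05, 15 were lower and 1 (Ackr2) was higher, beside 6.35% of all probe sets lower and 3.55% higher, and 0 passed over all probe sets with limma. Among signalling and transcription genes 6 of 10 reached that p, all lower, and among decoy receptors only Ackr2 did. The median log2 fold change of the list was -0.75. This list, too, was chosen with earlier results of these data known, so its counts are a description and not a test.

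The summed levels of T cell, NK cell, blood monocyte, dendritic cell and B cell markers were lower in CKO without overlap, like the 4 separated chemokines. Those of neutrophil markers overlapped. Beside the counts of lower markers below, 44.5% of all probe sets were lower in CKO. The summed linear level of 9 T cell markers, given as log2, ran from 11.69 to 13.99 in controls and from 9.55 to 10.39 in CKO, and 9 of 9 were lower. Cd3e, part of the CD3 complex, was at 12.55, 9.59 and 12.45 in controls and at 6.48, 8.21 and 7.40 in CKO, and so shared with Ccl5 and Cxcl9 the low control replicate 2. Its log2 fold change was -4.17 (limma adjusted p = 0.121), beside -4.19 for Ccl5, and that of Cd3d, another CD3 chain, was -3.10 (adjusted p = 0.0745). For 9 NK cell markers the sum ran from 11.05 to 12.75 in controls and from 10.08 to 10.80 in CKO, with 9 of 9 lower. Its largest part on every array was Gzma, a granzyme, at 9.70 to 11.86 in controls and 8.44 to 9.54 in CKO. Prf1 and Eomes of that list overlapped between the groups. Ncr1, an activating NK receptor, overlapped between the groups at 6.93 ± 0.58 and 6.27 ± 0.55, as did Xcl1, while Klrb1c, the NK1.1 antigen, was at 8.32 ± 0.29 and 6.84 ± 0.69 without overlap.

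For 8 blood monocyte markers the sum ran from 18.57 to 18.88 in controls and from 16.39 to 17.38 in CKO, with 8 of 8 lower. That sum was carried by Lyz2, the lysozyme gene, at 17.92 to 18.19 in controls and 15.36 to 16.59 in CKO. Ccr2, the receptor that brings monocytes into tissue, differed by -1.99 without overlap, while Ly6c2, a surface marker of inflammatory monocytes, differed by -1.50 and overlapped between the groups, as did Plac8 and Vcan. Dendritic cell markers were lower in 6 of 6, with sums of 10.25 to 11.27 in controls and 9.13 to 10.16 in CKO. The largest part of those sums was Cd209a, at 9.23 to 10.78 in controls and 8.14 to 9.61 in CKO, with overlap. B cell markers were lower in 5 of 5, with sums of 9.55 to 10.32 in controls and 8.30 to 8.95 in CKO. Flt3 and Zbtb46, which define conventional dendritic cells, were dim, at 5.90 ± 0.36 and 5.09 ± 0.40 for Flt3 and at 6.01 ± 0.42 and 5.57 ± 0.25 for Zbtb46. Ms4a1 and Cd79a, which define B cells, were at 5.69 ± 0.29 and 5.10 ± 0.58 and at 7.18 ± 0.95 and 6.18 ± 0.62, both with overlap. Cd22, a B cell lectin, was the only B cell marker at an unadjusted p under 0.05, at 8.39 ± 0.31 and 6.17 ± 0.55 (log2 fold change -2.22, limma adjusted p = 0.0983). Neutrophil markers were lower in 4 of 5 and their sums overlapped, from 17.68 to 18.21 and from 17.54 to 18.20, with S100a8 and S100a9 differing by -0.20 and 0.03. How much of the chemokine differences came with these cells was not tested.

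Of the microglial markers 7 of 9 were higher in CKO, beside 12325 of all 22206 probe sets. Tmem119 and Sall1 were lower, with log2 fold changes of -0.44 and -0.16 and overlapping groups. The microglial sums ran from 20.84 to 21.24 in controls and from 21.44 to 21.66 in CKO, with P2ry12 and Csf1r as their largest parts. The mean deviation of the list overlapped, at 0.01, -0.07 and -0.47 in controls and 0.60, -0.03 and -0.04 in CKO. Astrocyte sums ran from 11.69 to 15.28 in controls and from 12.92 to 17.12 in CKO, oligodendrocyte sums from 14.10 to 18.12 and from 15.20 to 19.37, and neuron sums from 11.84 to 14.86 and from 14.0 to 15.59. Aqp4, the astrocyte water channel, was at 10.33 on control replicate 2 and 12.30 on CKO replicate 1. On the same arrays Mbp, a myelin protein, was at 18.11 and 19.37, and Snap25, a synaptic protein, at 10.99 and 12.94. The neuron sum, however, was highest on CKO replicate 3, at 15.59 against 15.17 on CKO replicate 1 and 14.86 on control replicate 2. Its largest part on CKO replicate 3 was Syt1, at 15.52. Endothelial sums ran from 9.50 to 9.90 in controls and from 9.42 to 9.52 in CKO, with 4 of 6 markers higher and 2 lower. Cldn5, their tight junction marker, stood near the lowest values at 4.68 ± 0.38 and 4.94 ± 0.21. Flt1 and Kdr, receptors for VEGF, were the 2 lower ones, at -0.67 and -0.86 without overlap.

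The genes whose profile over the 6 arrays was most like that of each chemokine were ranked by Pearson correlation among 10315 named genes with a range of at least 1 log2 unit. These correlations include the difference between the groups, and they are descriptions over 6 arrays. The part of the arrays' astrocyte RNA in them was not tested. For Ccl5 the nearest genes were Ifi27l2a (r = 0.999), Ifi208 (0.998) and Themis (0.996), the last known as a T cell signalling protein. For Cxcl9 they were Epsti1 (0.997), Slc28a2 (0.997) and Il2rb (0.996), a chain of the interleukin-2 receptor of T and NK cells. For Cxcl10 they were Cst7 (0.995), the interferon-induced GTPase gene Gbp2 (0.994) and Gzmk (0.994), a granzyme of lymphocytes.

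Cxcl16 was most like Ifi214 (0.995), Sp110 (0.994) and Dtx3l (0.993). Cxcl11 was most like Kmo (0.993), an enzyme of tryptophan breakdown, Phf11c (0.976) and Gpr141b (0.974). Xcl1 was most like Ghrl (0.997), which encodes the stomach hormone ghrelin, Zc2hc1c (0.993) and Mup3 (0.991), a major urinary protein of the liver. The 3 genes nearest to Xcl1 differed between groups by 0.06 to 0.11, while those nearest to Ccl5 differed by -3.26 to -2.29. That contrast follows from the ranking, which used arrays of both groups, and is not a separate result.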

How the data were processed

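The authors deposited log2 expression values, 1 per probe set and array, from RMA (robust multi-array average) per the submitters' processing notes. The version and settings of RMA are not stated there. RNA from TRIzol extraction was labelled with an Affymetrix kit for whole transcripts, per the labels' protocols. The log2 scale follows from the range of the values, 2.93 to 19.93. Of 22206 probe sets, 19572 named 1 gene in the platform annotation and 2634 were unnamed here. Of a gene's probe sets, the one with the highest mean stood for it. Signal over background was not assessed, so dim genes have an uncertain level.

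Groups came from the sample titles. limma 3.58.1 (lmFit and eBayes, R 4.3.3) gave CKO minus control over all 6 arrays with no covariate, two-sided, with Benjamini-Hochberg adjustment for all probe sets. The members and gene lists were chosen with earlier results of these data known. Named genes were the members, fixed receptors, proteases and inducers, up to 4 further pathway genes by p, the 3 nearest genes by correlation and defining markers of each list; Ackr2, Ifnb1 and the overlapping genes were named after their values were seen. Some listed genes are not reported here. Promoter letters came from the RefSeq table (GRCm38.p6). Alternatives were 2 between-array normalizations, centring, filters on the dimmest 20% and 50%, a trended and robust fit, array weights, a block for the replicate number, arrays left out, and averaging over the probe sets of a gene.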

Additional observations from a re-analysis of the deposited data

How the results depend on the processing

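The 6 chemokine genes were called 0 times at an adjusted p of 0.05 as reported, 1 time (Ccl5) at 0.1, 4 times with array weights and 4 times without control replicate 2 and CKO replicate 1 together. The settings with 4 calls rest mainly or only on the CKO arrays with a narrow range. Leaving out 1 array gave 0 to 3. The count of chemokine genes at an unadjusted p under 0.05 was 4 as reported and 4 or 5 under the alternatives run. The share of all probe sets lower at that p, 6.35% as reported, ran from 3.84% (without control replicate 1) to 14.2% (array weights). The same count therefore stands beside different shares. The median change, -2.69 as reported, ran from -3.49 (without control replicate 2) to -2.04 (without control replicate 3) when 1 array was left out, and was -3.67 over the 4 genes kept when the dimmest 50% were left out. The pathway count, 16 as reported, ran from 11 (with the dimmest 50% or 1 of 4 single arrays left out) to 22 (without control replicate 2 and CKO replicate 1). Probe sets called numbered 2 as reported, 1 under quantile normalization and with the dimmest 20% or 50% left out, 4 with the trended robust fit, 1694 with array weights, 44 at an adjusted p of 0.1, 0 without CKO replicates 2 and 3, and 2516 without control replicate 2 and CKO replicate 1; leaving out 1 array gave 0 to 2209. Xcl1 changed sign from 0.03 to -0.0089 (quantile normalization), -0.067 (cyclic loess), -0.10 (median centring) and -0.79 (without CKO replicates 2 and 3), and leaving out 1 array gave -0.27 to 0.44. The cause was not tested. The filter on the dimmest 50% left out Cxcl11 and Xcl1 and 10 of the 33 pathway genes, so its pathway count of 11 is over fewer genes. With the replicate number as a block (replicate block), 0 probe sets and 0 chemokine genes were called. Deviations from the group mean of same-numbered arrays correlated at -0.01, -0.23 and 0.25. The highest correlation, 0.30, was between control replicate 2 and CKO replicate 1, the arrays with the most astrocyte RNA. Deviations within a group of 3 arrays depend on each other, so these values cannot tell whether the numbers pair the arrays. With 3 arrays per group, a chemokine change near 1 log2 unit, as for Cxcl11, is within the intervals.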
